A study of Harpegnathos saltator with 14 samples.

Results

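Of 20317 HSALG gene models measured over the development of the ant Harpegnathos saltator, 5 were chosen as genes of both larval instars. All 5 were high in every instar 1 and instar 4 library and lower in every library of embryos, late pupae, adult workers and males. They were HSALG005183.2, HSALG004476.2, HSALG001493.2, HSALG006547.2 and HSALG001631.1. They were chosen from measured values, with L = log2(RPKM + 1), where RPKM is reads scaled to the length of the gene model and to the size of the library. The lowest L of the 4 larval libraries had to be at least 1 above the highest of the 8 libraries in 4 other groups. Genes with both libraries of 1 instar at least 1 above every library outside that instar and early pupae were left out as restricted. This left out 3 of the 8 genes past the margin, all higher in instar 1 but above every outside library in instar 4 too. The early pupa libraries took no part in this choice. Levels in the other 12 libraries are therefore a description of the choice and carry no test of larval against other stages.

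Ant larvae are legless feeding stages that depend on adult workers for care, grow through a series of moults, and pass through the pupa to the adult form. In insects with complete metamorphosis much of the larval body, including parts of the gut, fat body, salivary glands and cuticle, is broken down or rebuilt in the pupa. Genes used by larvae and not by adults commonly include those for larval storage proteins, larval cuticle proteins and digestive enzymes. The deposited table pairs no identifier with a gene name, and 0 of its identifiers were found among the 14329 genes of the reference table used here. No role, sequence or genome position is therefore given for any of the 5 genes, and pathway and tissue marker lists had no measured members.

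The study sequenced poly(A) RNA from whole bodies in 14 libraries, 2 for each of 7 groups. These were embryos, larvae of the first and of the fourth instar (instar 1 and instar 4), early and late pupae, workers taken as adults, and males. According to the labels, all animals were kept at 25 °C and 50% humidity, under alternating light and dark, with live crickets as food. The labels give no strain, treatment, age in days, colony, number of animals per library or caste, and no sex other than for the males. Replicates are thus separate libraries whose animals are not described, and p-values measure only the spread between them, which may be partly technical. In whole bodies, fewer cells of a type and less RNA per cell cannot be told apart.

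Libraries held between 4273973 and 14217311 reads in genes, and 1 read in a 1 kb gene model was worth 0.0250 to 0.0879 RPKM. Replicates differed most in early pupae, where the SD across 12421 tested genes of the difference in L between libraries was 1.29, followed by embryos at 0.930, against 0.312 in workers and 0.366 in instar 4 larvae. The 10 most abundant genes made up 60.4% and 61.4% of the reads in genes of the instar 4 libraries, and 13.8% and 16.2% in instar 1 larvae. The median RPKM of tested genes was 2.88 and 2.69 in instar 4 larvae and 4.77 and 3.22 in instar 1 larvae, against 8.34 and 7.35 in embryos, so that RPKM of different stages do not share a common median.

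The larval margin removed nearly all gene models. Of the HSALG genes, 51 that passed the filter on low values had a margin above 0, 17 had one of at least 0.5, and 8 reached 1. Of these 8, 3 were left out because both instar 1 libraries were also at least 1 above every other library outside early pupae, and 0 because of instar 4. None of the 438 XLOC identifiers of the table reached the margin. The margin of the 5 members was 7.81 in HSALG005183.2, 4.93 in HSALG004476.2, 2.56 in HSALG001493.2, 1.88 in HSALG006547.2 and 1.10 in HSALG001631.1. HSALG006547.2 and HSALG001631.1 were the members closest to the threshold. Just outside it lay HSALG011239.2 at 0.99 and HSALG007882.1 at 0.98, with lowest larval values of 7.45 and 10.9 RPKM against highest outside values of 3.26 and 5.03 RPKM. The set depended on single larval libraries. Without instar 4 replicate 2 only 2 genes met the rule, HSALG005183.2 and HSALG006547.2, since genes restricted to instar 1 are left out. Without instar 1 replicate 2 there were 9, of which 4 were members, and with libraries scaled to a common median there were 14, with all 5 members among them.

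**Figure D1:**
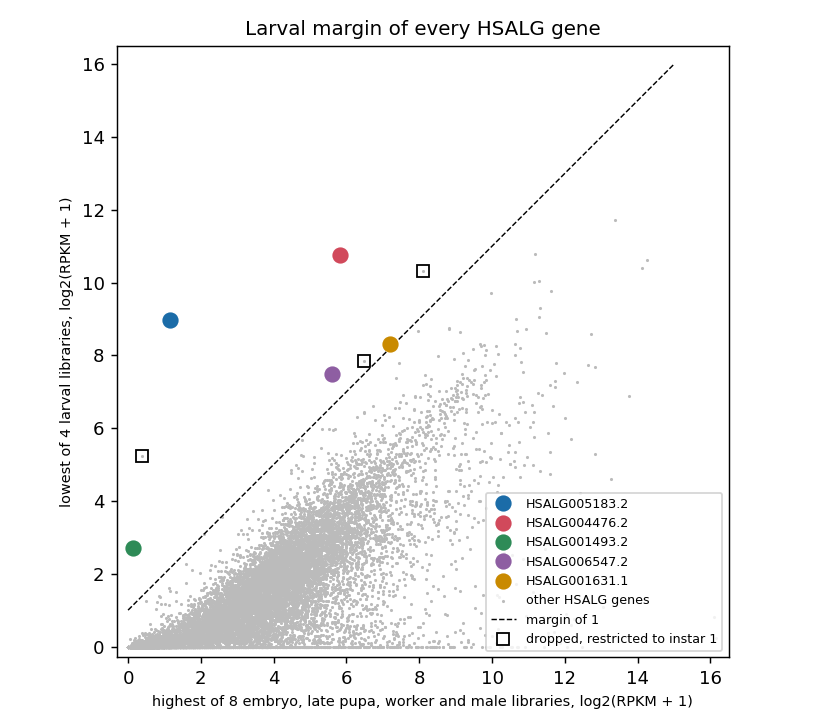
Lowest L of the 4 larval libraries (vertical axis) against highest L of the 8 embryo, late pupa, worker and male libraries (horizontal axis), L being log2(RPKM + 1), for every HSALG gene. The dashed line marks a margin of 1. The 5 members (coloured) and the 3 genes left out as restricted to instar 1 (squares) lie on or above it, HSALG005183.2 farthest at 7.81 and HSALG001631.1 closest at 1.10.

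HSALG005183.2 had the widest margin and was close to silent outside larvae and early pupae. In order of the libraries of each group, its level was 0.0518 and 0 RPKM in embryos, 2015 and 861 in instar 1 larvae, 501 and 1076 in instar 4 larvae, 4.14 and 26.5 in early pupae, 0.929 and 0.498 in late pupae, 0.559 and 1.23 in workers, and 0.0499 and 0 in males. The larval libraries held between 9933 and 37730 reads of the gene, while the embryo and the male libraries each held 1 and 0 reads. At a floor of 3 reads, 0 reads allow up to 0.111 RPKM in embryo replicate 2 and 0.202 RPKM in male replicate 2, and such floors cover counting error only. The lowest larval library lay 406-fold above the highest outside library, worker replicate 2. It ranked between 18 and 75 among all HSALG genes in the larval libraries, and the ranges of both instars overlapped.

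HSALG004476.2 was the most abundant of the 5. Its level was 7.80 and 55.4 RPKM in embryos, 13461 and 11901 in instar 1 larvae, 1715 and 10672 in instar 4 larvae, 36.2 and 35.2 in early pupae, 9.66 and 4.53 in late pupae, 0.355 and 0.160 in workers, and 0.815 and 2.21 in males. It accounted for 2.53% and 2.69% of the reads in genes of instar 1 larvae and for 0.223% and 1.39% in instar 4 larvae, and ranked 2 and 4 among HSALG genes in instar 1. Both instar 1 libraries lay above both instar 4 libraries, an order that did not hold under median scaling between libraries. The instar 4 libraries were 6.22-fold apart, replicate 2 being close to the instar 1 level and replicate 1 far below it. Worker libraries held 7 and 2 reads of the gene, and male libraries 9 and 18.

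HSALG001493.2 was the weakest member by level. Its level was 0.0170 and 0.0364 RPKM in embryos, 53.6 and 76.0 in instar 1 larvae, 5.48 and 93.2 in instar 4 larvae, 0.344 and 0.363 in early pupae, 0.0971 and 0.0819 in late pupae, 0.0184 and 0.0289 in workers, and 0.0164 and 0.0444 in males. All 8 outside libraries were under 1 RPKM, and those of embryos, workers and males held 1 to 3 reads of the gene. The instar 4 libraries were 17.0-fold apart, with instar 4 replicate 1 the lowest of the larval libraries and replicate 2 the highest. Instar 4 replicate 1 alone set the lower edge of this gene's larval range.

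HSALG006547.2 had the highest mean early pupa level of the 5, through early pupa replicate 2. Its level was 1.32 and 48.0 RPKM in embryos, 959 and 240 in instar 1 larvae, 187 and 179 in instar 4 larvae, 30.7 and 158 in early pupae, 2.08 and 5.42 in late pupae, 1.07 and 0.840 in workers, and 1.59 and 3.97 in males. Both instar 1 libraries lay above both instar 4 libraries, which differed little from each other. Early pupa replicate 2, at 158 RPKM, was just under the lowest larval library at 179 RPKM, whereas early pupa replicate 1 was below embryo replicate 2. The lowest larval library lay 3.72-fold above embryo replicate 2, and 32.9-fold above the next outside library, late pupa replicate 2.

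HSALG001631.1 met the rule most narrowly, with embryo replicate 2 setting its margin. Its level was 5.05 and 147 RPKM in embryos, 1585 and 2181 in instar 1 larvae, 316 and 880 in instar 4 larvae, 3.78 and 18.8 in early pupae, 0.618 and 1.12 in late pupae, 0.409 and 0.429 in workers, and 0 and 0.658 in males. The lowest larval library lay 2.15-fold above embryo replicate 2 and 62.6-fold above embryo replicate 1, the next outside library. Late pupa, worker and male libraries held 0 to 12 reads of this short gene model, so their order was not detectable at this depth. Both instar 1 libraries lay above both instar 4 libraries.

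**Figure D2:**
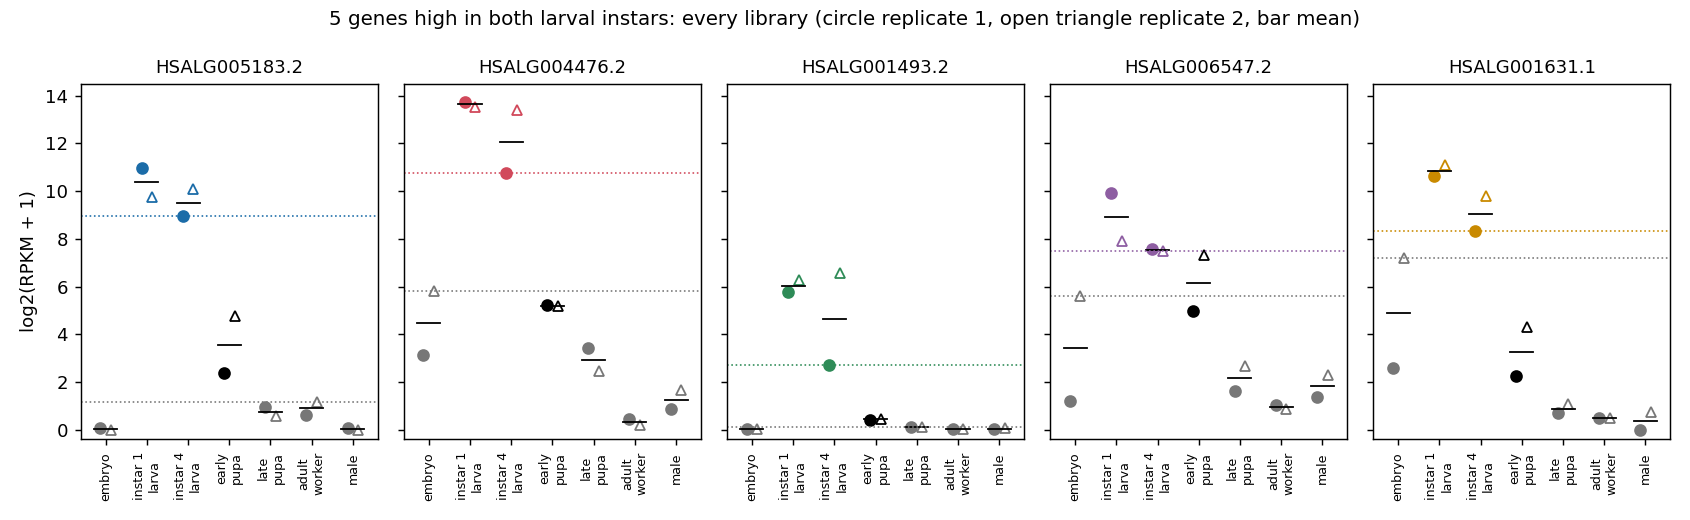
log2(RPKM + 1) of each member (1 panel per gene) in every library, by group in order of development with males last. Circles are replicate 1, open triangles replicate 2 and bars group means; early pupae, not used in the choice, are black, other groups outside the larvae grey, and dotted lines mark the lowest larval and the highest outside library. In all 5 panels the larval libraries lie highest, embryo replicate 2 approaches them in HSALG001631.1 (147 RPKM), and early pupa replicate 2 nearly reaches them in HSALG006547.2 (158 RPKM).

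Together the 5 genes accounted for 3.59% and 3.39% of the reads in genes of instar 1 larvae and for 0.389% and 1.78% in instar 4 larvae. Their share was 0.0160% and 0.0378% in early pupae and 0.00215% and 0.0308% in embryos, and at most 0.00283% in any late pupa, worker or male library. HSALG004476.2 supplied most of the larval share.

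By group mean of L, instar 1 was the highest group for all 5 members and instar 4 the next. The instars overlapped in HSALG005183.2 and HSALG001493.2. In the other 3 members both instar 1 libraries lay above both instar 4 libraries. The count dropped to 2 under median scaling, where HSALG004476.2 lost this order, and to 1 under quantile scaling between libraries. Among all tested genes 49.9% had that order and 20.5% the opposite one, which 0 members showed, and because the rule left out genes restricted to a single instar, nothing is read from these counts. Instar 4 minus instar 1 was -0.84 on the L scale in HSALG005183.2, -1.39 in HSALG006547.2 and in HSALG001493.2, -1.56 in HSALG004476.2 and -1.82 in HSALG001631.1. These differences carry no test and are on RPKM without scaling between libraries. Median scaling shifted the instar 1 libraries by -0.07 and 0.50 in log2, and the instar 4 libraries by 0.66 and 0.76.

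Below the larvae, early pupae came next by mean L in 4 members and embryos in HSALG001631.1. The libraries of early pupae and embryos overlapped in HSALG004476.2, HSALG006547.2 and HSALG001631.1, and those of embryos and late pupae in HSALG004476.2 and HSALG006547.2, so these neighbours were not ordered beyond their spread. In HSALG005183.2 the libraries of workers and late pupae overlapped, as did those of embryos and males. Groups with 3 reads or fewer per library, as in HSALG001493.2, were not ordered.

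Early pupae, whose values did not enter the choice, lay below both instar 4 libraries and above both late pupa libraries in each of the 5 genes. The rule had set instar 4 high and late pupae low, so this place is in part built in. Neither this place nor the numbers that follow were counted over all genes. In early pupa replicate 1, 0 members reached the lowest larval library, 2 lay between the larval and the outside range, and 3 were at or below the highest outside library. In early pupa replicate 2 the numbers were 0, 3 and 2. The members at or below the outside range in both libraries were HSALG004476.2 and HSALG001631.1. In HSALG004476.2 embryo replicate 2 was the single outside library above early pupae, and in HSALG001631.1 both embryo libraries were above early pupa replicate 1. With embryos left aside, every early pupa value of the 5 genes exceeded every late pupa, worker and male value of the same gene. Those groups were low by the rule, and this order was not counted over all genes either.

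Set against instar 4 larvae, the early pupa values of the 5 genes are given without a test, because the rule had chosen the instar 4 values as high and a lower value in another group is in part built in. HSALG004476.2 averaged 35.7 ± 0.689 RPKM in early pupae and 6194 ± 6333 RPKM in instar 4 larvae (SD, n = 2 each), which is -6.86 ± 0.88 on the L scale (difference ± SE from the limma fit of all tested genes). HSALG005183.2 averaged 15.3 ± 15.8 RPKM in early pupae and 789 ± 407 RPKM in instar 4 larvae (SD, n = 2 each), or -5.95 ± 0.68 on the L scale. In both genes the early pupa libraries were far below both instar 4 libraries. The difference was -5.77 ± 1.15 in HSALG001631.1 and -4.19 ± 0.86 in HSALG001493.2, also without overlap between the groups. HSALG006547.2 was nearest to its larval level, at 94.5 ± 90.3 RPKM in early pupae and 183 ± 6.18 RPKM in instar 4 larvae (SD, n = 2 each), a difference of -1.37 ± 1.20. The median of all 12421 tested genes lay at 0.45 in this comparison and at -0.04 with median scaling. The limma fit marked 2 of the 5 genes as lower and 0 as higher, beside 0.37% and 0.258% of all genes, and nothing is read from this count.

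The early pupa libraries differed from each other in 3 of these genes. HSALG005183.2, HSALG006547.2 and HSALG001631.1 were 2.42, 2.33 and 2.05 higher in replicate 2 on the L scale, while HSALG004476.2 and HSALG001493.2 differed by -0.04 and 0.02. Across all tested genes the median difference was -0.55, and 6.12% of genes were at least 1 higher in replicate 2. The difference between early pupae and instar 4 larvae was -7.16 without early pupa replicate 2 and -4.74 without replicate 1 in HSALG005183.2, -6.79 and -4.74 in HSALG001631.1, and -2.54 and -0.21 in HSALG006547.2. It was -6.85 and -6.88 in HSALG004476.2 and -4.20 and -4.18 in HSALG001493.2.

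Late pupae had lower mean values than early pupae in every member, and here too no test is given, since the rule required the late pupa libraries to be low. HSALG006547.2 averaged 3.75 ± 2.36 RPKM in late pupae and 94.5 ± 90.3 RPKM in early pupae (SD, n = 2 each), or -4.00 ± 1.20 on the L scale. HSALG005183.2 averaged 0.714 ± 0.304 RPKM in late pupae and 15.3 ± 15.8 RPKM in early pupae (SD, n = 2 each), or -2.81 ± 0.68 on the L scale. The other 3 differed by -2.39 in HSALG001631.1, -2.26 in HSALG004476.2 and -0.31 in HSALG001493.2. The limma fit marked 0 members in either direction, beside 0.00805% of all genes lower and 0.169% higher. At an unadjusted p below 0.05 it marked 3 members and 823 of 12421 tested genes. With limma-voom on resolved reads 0 members were marked at an adjusted p below 0.05. Nothing is read from these counts.

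**Figure D3:**
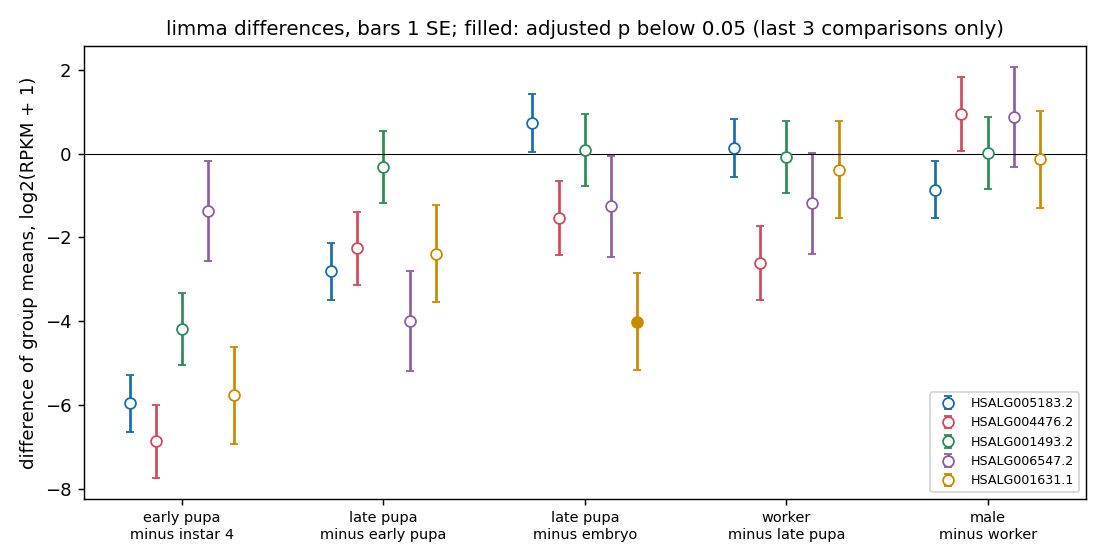
Difference of group means in log2(RPKM + 1) for each member in 5 comparisons, with bars of 1 SE from the limma fit of all 14 libraries. Filled points have an adjusted p below 0.05 and are marked in the last 3 comparisons only; the first 2, with early pupae, carry no test. HSALG004476.2 lies lowest for early pupae minus instar 4 larvae (-6.86), and HSALG001631.1 for late pupae minus embryos (-4.01) is the filled point.

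The rule used the values of embryos, late pupae, workers and males as well, but only through the highest of them, which sets a common upper bound and no direction between these groups. Differences among them were tested under that bound, on values that had entered the choice. HSALG005183.2 reached 1 RPKM in early pupae as well as larvae and is kept, though 7 of its 8 outside libraries lay under 1 RPKM. HSALG001493.2 passed the filter on low values through its larval libraries alone and is left out of the counts that follow. Of the other 4 genes, 1 was called lower in late pupae than in embryos and 0 higher, beside 38.3% of all genes called lower and 7.34% called higher. HSALG001631.1 averaged 0.870 ± 0.357 RPKM in late pupae and 75.9 ± 100 RPKM in embryos (SD, n = 2 each), or -4.01 ± 1.15 on the L scale (limma, adjusted p = 0.0157). The share of members called was near or under the background. The call rested on embryo replicate 2, the library that also set the margin of this gene in the rule. It was lost without that library, where the difference in L was -1.71. The call was also lost without late pupa replicate 1 or 2 (limma, adjusted p = 0.0748 and 0.0522) and with median or quantile scaling (limma, adjusted p = 0.0801 and 0.0618). Without embryo replicate 1, 3 members were called lower, the others being HSALG004476.2 and HSALG006547.2. HSALG005183.2 went the other way in value, at 0.714 ± 0.304 RPKM in late pupae and 0.0259 ± 0.0366 RPKM in embryos (SD, n = 2 each), or 0.73 ± 0.68 on the L scale (limma, adjusted p = 0.400). With log2(RPKM + 0.1), which weighs low values more, this gene was called higher in late pupae (limma, adjusted p = 0.0187).

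Adult groups were low in all 5 genes. Between workers and late pupae 0 of the 4 genes were called, beside 3.13% of genes called lower and 7.38% called higher by limma. HSALG004476.2 came closest, at 0.257 ± 0.138 RPKM in workers and 7.09 ± 3.63 RPKM in late pupae (SD, n = 2 each), or -2.61 ± 0.88 on the L scale (limma, adjusted p = 0.0849), and was the only one of them at an unadjusted p below 0.05. With log2(RPKM + 0.1) this gene was called lower in workers. Between males and workers 0 of the 4 were called, with 0 at an unadjusted p below 0.05, beside 1.3% of genes called lower and 1.69% called higher. The differences of males minus workers ran from -0.86 in HSALG005183.2 to 0.94 in HSALG004476.2, with standard errors of 0.68 and 0.88. HSALG005183.2 held 1 and 0 reads in males and 20 and 28 in workers, and HSALG004476.2 held 9 and 18 reads in males and 7 and 2 in workers.

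Embryo replicate 2 held more of 3 members than embryo replicate 1. The difference on the L scale was 4.61 in HSALG001631.1, 4.40 in HSALG006547.2 and 2.68 in HSALG004476.2, against 0.03 in HSALG001493.2 and -0.07 in HSALG005183.2, which held 3 reads or fewer in both embryo libraries. Of all tested genes 9.23% were at least 1 higher in embryo replicate 2, with a median of -0.11. Of 78 HSALG genes restricted to instar 1, 58 were higher in embryo replicate 2, with a median difference of 0.62. The share of all tested genes higher in that library by any amount was not counted. The embryo values had also entered the choice of the 78 genes, so nothing is read from their count. The part of the difference between the embryo libraries in the members' embryo values was not tested.

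Instar 4 replicate 2 was in turn at least 1 above instar 4 replicate 1 in 4 of the 5 genes, by 3.86 in HSALG001493.2, 2.64 in HSALG004476.2, 1.47 in HSALG001631.1 and 1.10 in HSALG005183.2, while HSALG006547.2 differed by -0.07. Instar 4 values entered the choice, and a high instar 4 replicate 2 keeps a gene from being left out as restricted to instar 1, so these gaps are in part fixed by the rule. Of all tested genes 0.692% were at least 1 higher in instar 4 replicate 2, with a median of -0.04. Without that library HSALG001493.2, HSALG004476.2 and HSALG001631.1 left the set, and in the 3 genes left out the gaps were 0.08, 0.22 and -0.11. In instar 1 larvae HSALG006547.2 and HSALG005183.2 were 1.99 and 1.23 lower in replicate 2, and the other 3 members differed by at most 0.50. Of all tested genes 13.8% were at least 1 lower in instar 1 replicate 2, with a median of -0.28.

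**Figure D4:**
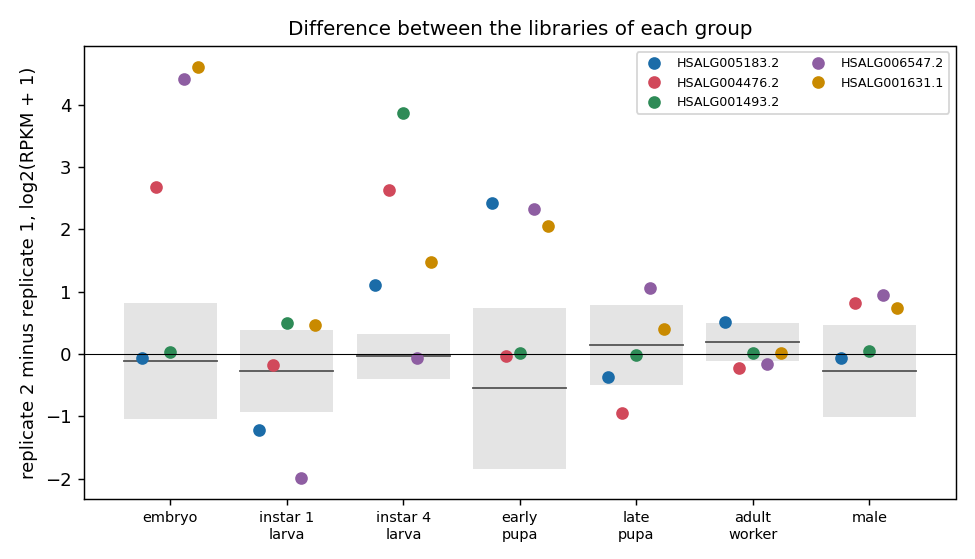
Replicate 2 minus replicate 1 in log2(RPKM + 1) for each member, by group in order of development with males last; grey boxes span 1 SD either side of the median over all 12421 tested genes (line). HSALG004476.2, HSALG006547.2 and HSALG001631.1 lie far above the box in embryos (2.68 to 4.61), and 4 members lie above it in instar 4 larvae (1.10 to 3.86), where the rule favours such gaps.

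The members resembled each other more closely over all libraries than within the groups outside the larvae. Pearson's r between pairs of members ran from 0.777 to 0.965 over 14 libraries, a range that the shared choice fixes in part. Over the 8 outside libraries, HSALG004476.2, HSALG006547.2 and HSALG001631.1 correlated with r of 0.815 to 0.872, with embryo replicate 2 among the points, and every pair with HSALG005183.2 or HSALG001493.2 had r between -0.456 and 0.395. The lengths of the gene models, resolved from the steps of the RPKM, were 267 bases in HSALG001631.1, 717 in HSALG004476.2, 819 in HSALG006547.2, 1302 in HSALG005183.2 and 3962 in HSALG001493.2, against a median of 1032 bases for HSALG genes past the filter. Lengths of 4 members were multiples of 3, as in 97.8% of such genes, so these 4 were taken as coding lengths. The length of HSALG001493.2 was not a multiple of 3.

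The genes whose profile over 14 libraries was most like the mean of the members, a measure chosen after the values were seen and with no test, were HSALG000974.2 (r = 0.968), HSALG005522.2 (r = 0.958) and HSALG014454.2 (r = 0.911). HSALG000974.2 and HSALG005522.2 are among the 3 genes left out as restricted to instar 1. HSALG000974.2 had 154 and 104 RPKM in instar 1 larvae and 36.6 and 38.7 RPKM in instar 4 larvae, against at most 0.306 RPKM in any outside library. HSALG005522.2 had 3028 and 6472 RPKM in instar 1 larvae and 1277 and 1493 RPKM in instar 4 larvae, with 4.69 and 276 RPKM in embryos. The third gene left out, HSALG011248.2, had 2183 and 2335 RPKM in instar 1 larvae and 246 and 227 RPKM in instar 4 larvae, and its early pupa libraries held 4.90 and 1496 RPKM. All 3 genes had instar 4 values above every outside library, and their higher instar 1 values kept them out of the set.

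Few genes were shared by the larval instars in comparison with some other pairs of groups. With the same rule applied to each of the other 14 pairs among the 6 groups, embryos and instar 1 larvae shared 251 genes, workers and males 124, and embryos and late pupae 42. The median over the 14 pairs was 6 genes and the lowest number 1, for embryos and males, so that the 5 larval genes lay near the median, with 8 pairs above them, 2 equal and 4 below. By comparison, 78 genes were restricted to instar 1 and 83 to instar 4 by the same margin. These are counts with no test, on RPKM without scaling between libraries. With median or quantile scaling the larval pair had 14 or 12 genes, and the counts of the other pairs are given without scaling only.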

How the data were processed

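The authors deposited RPKM per gene model and library for 20755 identifiers. Per the submitters' processing notes, STAR 2.5.0b and DESeq2 are listed without a role. The sources used here do not give the read counter, the genome build or the gene lengths. Whole reads and lengths were resolved from the RPKM steps (relative tolerance 1e-05) for 18543 of 18543 identifiers above 0, and this step was tested on simulated data. Library denominators were 11378690 to 40062880 reads. Genes with RPKM of at least 1 in at least 2 libraries (12421, with all 5 members) were fitted as log2(RPKM + 1) with limma 3.58.1 (R 4.3.3), all 14 libraries in 1 fit, intensity trend, two-sided, Benjamini-Hochberg adjustment over all tested genes in each of 5 comparisons, called at adjusted p below 0.05. The comparisons of early pupae with instar 4 larvae and late pupae had been planned as tests and are given as values, since the rule used their other side. Log2 differences on this scale understate changes of low genes. Members, comparisons and lists were chosen with earlier results of these data known. Each named gene is a member, a gene left out by the rule, a neighbour of the threshold, or of the most like profile. Python 3.11.15 was used for the rest. Replicate numbers were not taken as pairs, since the labels do not say what they stand for and, over 21 pairs of groups, the correlation of their deviations from group means ran from -0.26 to 0.15.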

Additional observations from a re-analysis of the deposited data

How the results depend on the processing

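Over 370 alternative values of the 5 genes, 339 kept direction and call, 8 lost a call, 17 gained one and 6 changed sign, none of them called before or after. The 6 were late pupae against embryos in HSALG001493.2 with quantile scaling (-0.00987) and 5 values on leaving out a library. The 370 values include the comparisons with early pupae, which carry no test, and HSALG001493.2, left out of the counts above. They are therefore no measure of how firm a call is. The call of HSALG001631.1 for late pupae against embryos was lost in 6 of 16 alternatives. For late pupae against embryos HSALG006547.2 ran from -3.46 to 0.94 on leaving out each library, the sign changing without embryo replicate 2. For workers against late pupae HSALG005183.2 ran from -0.13 to 0.39, the sign changing without worker replicate 2 or late pupa replicate 2 (-0.05). For males against workers HSALG001493.2 ran from -0.0102 to 0.0289, the sign changing without male replicate 2, and HSALG001631.1 from -0.50 to 0.22, the sign changing without male replicate 1. Of 177 alternative counts, 153 stayed within 1.5 times. The number of genes meeting the rule was 8 with log2(RPKM + 0.1), 14 with median scaling, 12 with quantile scaling, 8 without leaving out single-instar genes and 4 at a margin of 1.5. It ran from 2 (without instar 4 replicate 2) to 9 (without instar 1 replicate 2), and all 5 members were kept in the first 4 of these settings. Under quantile scaling 1 member had both instar 1 above both instar 4 libraries, and early pupa replicate 2 reached the lowest larval library in 1. The comparisons with early pupae carry no test of the members, and their counts are given only to show the settings. Early pupae against instar 4 gave 4 members called lower with median scaling, 0 with only the 4 libraries compared, and 2 to 4 on leaving out each library. Late against early pupae gave 0 to 2 lower on leaving out each library. Late pupae against embryos gave 1 higher with log2(RPKM + 0.1), with only the 4 libraries compared and with limma-voom on resolved reads, which was added after seeing the data; lower members numbered 0 with median scaling, quantile scaling or only the 4 libraries, and 0 to 3 on leaving out each library (0 without embryo replicate 2, late pupa replicate 1 or late pupa replicate 2, 3 without embryo replicate 1). Workers against late pupae gave 1 lower with log2(RPKM + 0.1) and with only the 4 libraries. The replicate block gave 3 members called lower for early pupae against instar 4, by gaining HSALG001631.1, and changed no other call. Causes were not tested, except that fewer libraries entered some fits. Each group had 2 libraries, and levels under 3 reads could not be ordered.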
